A study of Homo sapiens with 6 samples.

Results

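The genes that make fatty acids, lengthen them and give them double bonds were examined in U87MG cells, an established human glioblastoma line, after exposure to RSL3, a compound that inactivates the lipid peroxide-reducing enzyme GPX4 and triggers ferroptosis. The 10 genes, SCD, SCD5, FADS1, FADS2, FADS3, ELOVL5, ELOVL6, FASN, ACACA and ACLY, were chosen by name, and each was matched from its symbol to 1 of the 65988 Ensembl gene identifiers in the count files. All 10 passed the filter on low counts, which left 16105 genes tested. Every library came from cells of the same wild-type line, treated either with vehicle (control, n = 3) or with 2 µM RSL3 (n = 3). Cells were treated for 24 h, and the labels do not name the vehicle. The labels number the libraries but do not say whether they came from separate cultures, so the p-values measure the spread between these libraries, and results in 1 line need not hold in others.

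Fatty acids are built in the cytosol from acetyl-CoA, which ACLY cleaves from citrate, ACACA carboxylates to malonyl-CoA and FASN condenses into palmitate. Elongases of the ELOVL family then add carbon pairs, and SCD and SCD5 place the first double bond into saturated chains. FADS1 and FADS2 add further double bonds to chains that already have some. Polyunsaturated chains in membrane phospholipids are the lipids that peroxidize in ferroptosis, whereas monounsaturated chains resist peroxidation.

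The libraries held between 27813462 and 43306335 counts. Of the glioblastoma markers examined, 8 of 9 were tested, and VIM fell from 68318 to 55915 and CD44 from 24702 to 18886 normalized counts, while TNC rose from 40751 to 47053 (edgeR). SOX2 did not exceed 2 counts in any library. The summed level of this list was 4271 to 4310 CPM (counts scaled to library size) in control and 3839 to 3981 in RSL3 libraries. Of 10 markers of other cell types, MOG and CD3E were at 0 in all libraries, 7 did not exceed 10 counts in any, and 3 were tested. MBP rose, with 80.0 to 105 normalized counts in control and 141 to 159 in RSL3 libraries. SYT1 rose as well, with 869 to 914 in control and 1029 to 1064 in RSL3 libraries. The summed level of that list was 29.3 to 30.1 CPM in control and 35.4 to 36.6 in RSL3 libraries, and the part of these shifts in the results below was not tested.

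After RSL3, 6 of the 10 genes were lower (ACLY, FASN, ELOVL5, SCD, FADS1 and FADS2), 1 was higher (ELOVL6), and ACACA, SCD5 and FADS3 did not pass the test (edgeR quasi-likelihood F test, Benjamini-Hochberg adjusted p under 0.05 over all genes tested). SCD changed most, falling to 0.606 of its control level, and of the other lower genes FADS1 fell by 12.7%, the least, and ELOVL5 fell by 19.1%, the most. Across all 16105 genes, 25.6% were called, 12.7% lower and 12.9% higher. The control and RSL3 libraries did not overlap in 7 of the 10 genes, against 38.6% of all genes. The median log2 fold change of the 10 was -0.22, and that of all genes tested was -0.00439. In bulk RNA, fewer cells of a type and less RNA per cell cannot be told apart.

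**Figure D1:**
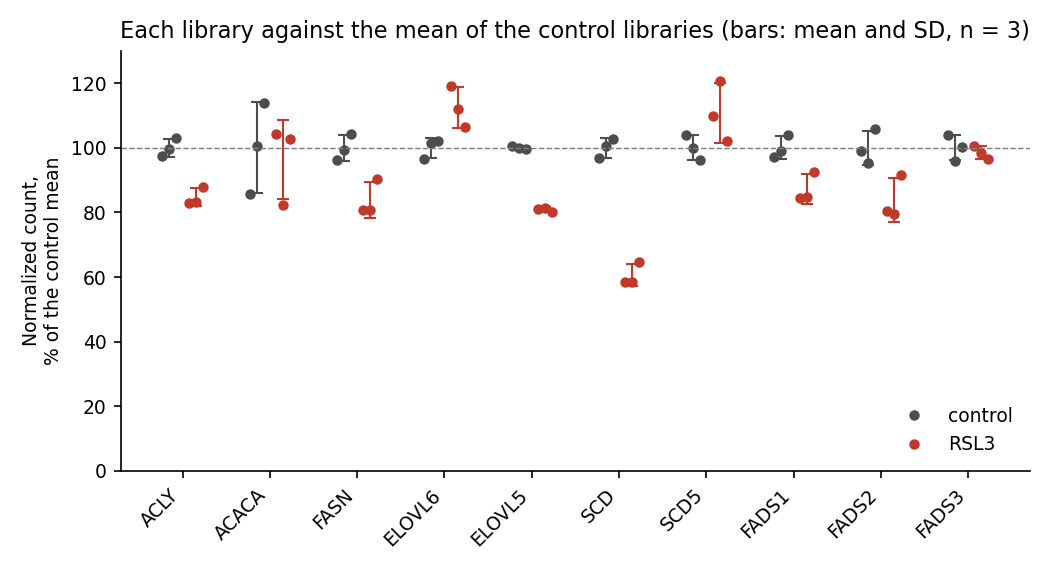
Normalized count of each of the 10 genes in each library, as a percentage of the mean of the 3 control libraries (bars, mean ± 1 SD, n = 3 per group). All 3 RSL3 libraries lie below all 3 control libraries for ACLY, FASN, ELOVL5, SCD, FADS1 and FADS2 and above them for ELOVL6, and the groups overlap for ACACA, SCD5 and FADS3.

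The genes differed widely in level. Levels were compared between genes as RPKM, counts scaled to exon length and library size, computed here from the counts. SCD stood at 1674 ± 51.2 RPKM in control cells (SD, n = 3), which placed it at rank 10 of the 15682 tested genes with an exon length. It was followed by ACLY at 81.8, FASN at 74.8, ELOVL5 at 65.7, FADS1 at 41.3, FADS3 at 38.1, FADS2 at 8.48, ELOVL6 at 6.57, SCD5 at 4.29 and ACACA at 0.256 RPKM. No neighbours in that order overlapped between the control libraries. The exon length of a gene, taken over all its annotated exons, acts on every library alike. Lack of overlap therefore does not show that close ranks would hold with other lengths, which was not tested. After RSL3 the order kept SCD, ACLY, FASN and ELOVL5 at the top, while FADS3 (37.5 RPKM) and FADS1 (36.0) overlapped, as did ELOVL6 (7.39) and FADS2 (7.11).

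**Figure D2:**
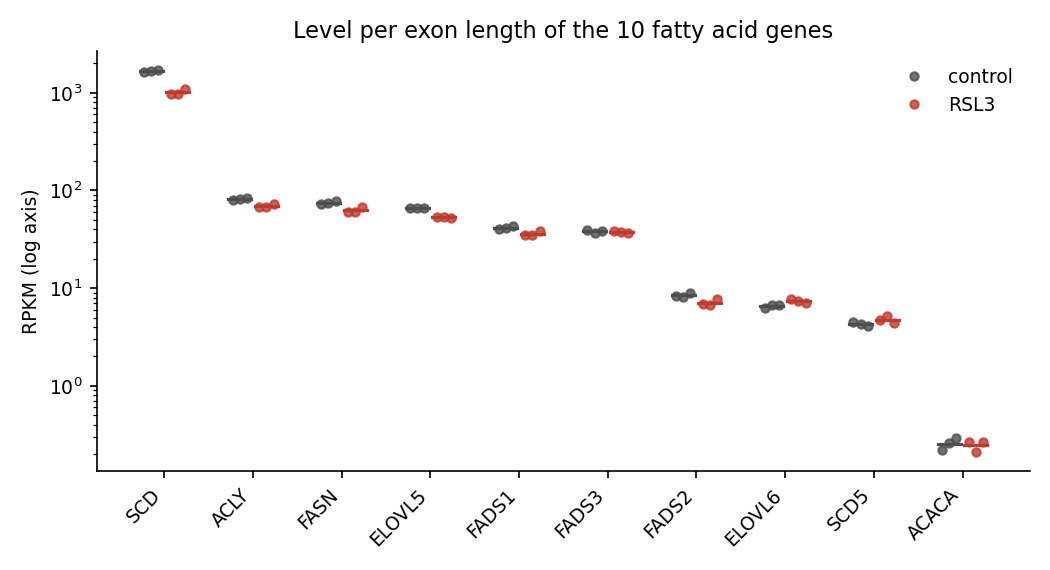
Level of the 10 genes in RPKM on a log axis, ordered by the control mean (points, libraries; lines, group means; n = 3 per group). SCD lies far above the rest in both groups, at 1674 and 1014 RPKM, and ACACA lies far below, at 0.256 and 0.247 RPKM. The ACACA values, low like those of the genes around it, do not measure how much of its mRNA the cells hold.

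The desaturase that makes monounsaturated chains carried the largest change. SCD (ENSG00000099194, chr10:100347233-100364826, plus strand, GRCh38) converts palmitate and stearate into palmitoleate and oleate. Normalized counts, scaled to a common library size, were 289451, 301385 and 307442 in the control libraries and 175396, 175379 and 193502 in the RSL3 libraries. The groups lay far apart, and RSL3 replicate 3 was the highest of its group. The log2 fold change was -0.72 (SE 0.03, 95% interval -0.79 to -0.66, edgeR adjusted p = 1.64e-12), and the level fell by 39.4%. By p it ranked 5 of the 16105 genes, and by the size of its fall 222 of the 2041 genes called lower.

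SCD alone took 0.850%, 0.881% and 0.908% of all counts in the control libraries and 0.511%, 0.512% and 0.567% in the RSL3 libraries. The 10 genes together took 1.07% to 1.14% of all counts in control and 0.697% to 0.765% in RSL3 libraries. Most of that share, and of its loss, was SCD, since the other 9 genes took 0.216% to 0.228% in control and 0.186% to 0.198% in RSL3 libraries. SCDP1, a processed pseudogene of SCD that can receive its reads, held 77 to 86 counts in control and 37 to 50 in RSL3 libraries, beside 152527 to 368243 raw counts of SCD itself.

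The 250 bases before the annotated start of SCD (chr10:100346983-100347232, plus strand, RefSeq, GRCh38.p14) are shown because SCD had the largest change. Capitals mark CCAAT boxes (CCAAT), 229 to 225 and 186 to 182 bases before the start, and GC boxes (GGGCGG, here on the opposite strand), 33 to 28 and 11 to 6 bases before it.
SCD: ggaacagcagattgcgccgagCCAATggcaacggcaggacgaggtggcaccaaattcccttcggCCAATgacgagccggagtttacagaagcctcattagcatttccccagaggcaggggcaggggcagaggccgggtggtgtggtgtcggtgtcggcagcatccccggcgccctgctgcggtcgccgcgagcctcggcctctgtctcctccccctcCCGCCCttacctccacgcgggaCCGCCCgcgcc

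SCD5, the second human stearoyl-CoA desaturase (ENSG00000145284, chr4:82629539-82798796, minus strand), did not fall with SCD. Normalized counts were 643, 618 and 595 in control and 680, 746 and 631 in RSL3 libraries. The groups overlapped, because RSL3 replicate 3 lay below control replicate 1. The log2 fold change of 0.15 (95% interval -0.01 to 0.30) did not pass the test (edgeR adjusted p = 0.160), and it was 0.08 without RSL3 replicate 2. There were 450, 488 and 516 SCD counts per SCD5 count in the control libraries and 258, 235 and 307 in the RSL3 libraries. This log2 ratio was lower by 0.87 on average, with no overlap, and the two-sided exact permutation p was 0.1, the smallest that 3 against 3 libraries allow (0.267 adjusted over 8 ratios).

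The 3 FADS genes lie close together on chromosome 11, and 2 of the 3 were called lower. The annotated span of FADS1 lies within that of FADS2, on the opposite strand. FADS1 and FADS2 insert double bonds into polyunsaturated chains on the route to arachidonate and docosahexaenoate. FADS1 (ENSG00000149485, chr11:61799627-61829318, minus strand) had 13966, 14266 and 14956 normalized counts in control and 12155, 12199 and 13328 in RSL3 libraries. All RSL3 libraries lay below all control libraries, and replicate 3 was the highest in each group. FADS1 thus had a log2 fold change of -0.20 (SE 0.04, edgeR adjusted p = 0.000291), and the level fell by 12.7%.

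FADS2, which acts before FADS1 (ENSG00000134824, chr11:61792980-61867354, plus strand), had 3015, 2910 and 3227 normalized counts in control and 2454, 2427 and 2796 in RSL3 libraries. The groups again did not overlap, with RSL3 replicate 3 closest to control. FADS2 thus had a log2 fold change of -0.25 (SE 0.05, edgeR adjusted p = 0.000528), and the level fell by 16.1%. FADS1 and FADS2 share 490 exonic bases on opposite strands, 4.79% of the exonic length of FADS1 and 4.64% of that of FADS2. Reads were counted without strand, so reads from these bases cannot be assigned to either gene. FADS3, a related desaturase (ENSG00000221968, chr11:61873519-61892051, minus strand), had 8482, 7840 and 8182 normalized counts in control and 8220, 8041 and 7889 in RSL3 libraries. These overlapped, and the log2 fold change of -0.02 (95% interval -0.09 to 0.05) did not pass the test (edgeR adjusted p = 0.692).

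Within libraries, the log2 ratio of FADS2 to FADS3 was lower after RSL3 by 0.23, with no overlap (two-sided exact permutation p = 0.1, adjusted 0.267). The ratio of FADS1 to FADS3 overlapped between groups, at 1.65, 1.82 and 1.83 in control and 1.48, 1.52 and 1.69 in RSL3 libraries (exact permutation p = 0.2). The log2 ratio of FADS1 to FADS2 differed by 0.06, with overlap (exact permutation p = 0.2).

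The elongases moved in opposite directions. ELOVL5 lengthens polyunsaturated chains (ENSG00000012660, chr6:53267398-53349179, minus strand). Normalized counts were 8584, 8529 and 8514 in control and 6934, 6952 and 6850 in RSL3 libraries. Libraries of a group differed little, and the groups lay far apart. The log2 fold change was -0.31 (SE 0.03, 95% interval -0.37 to -0.24, edgeR adjusted p = 8.76e-08), and the level fell by 19.1%.

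ELOVL6 lengthens saturated and monounsaturated chains of palmitate length (ENSG00000170522, chr4:110045846-110199199, minus strand). Normalized counts were 1571, 1652 and 1662 in control and 1941, 1824 and 1733 in RSL3 libraries. All RSL3 libraries lay above all control libraries, with RSL3 replicate 3 close to them. The log2 fold change was 0.17 (SE 0.05, 95% interval 0.07 to 0.27, edgeR adjusted p = 0.0102), a rise of 12.5%. The call was lost without control replicate 1 (log2 fold change 0.14, edgeR adjusted p = 0.0589) and without RSL3 replicate 1 (0.13, edgeR adjusted p = 0.0833). It was also lost in DESeq2 with 2 surrogate variables, at a log2 fold change of 0.17 (DESeq2 adjusted p = 0.0940). An unnamed gene on the opposite strand (ENSG00000288913) shares 240 exonic bases, 3.30% of the exonic length of ELOVL6.

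There were 0.183, 0.194 and 0.195 ELOVL6 counts per ELOVL5 count in control and 0.280, 0.262 and 0.253 in RSL3 libraries. The ratio rose in every RSL3 library relative to every control library, 1.39-fold on average (log2 difference 0.47, two-sided exact permutation p = 0.1, adjusted 0.267). The 250 bases before the start of both elongases are shown because these genes were called in opposite directions (RefSeq, GRCh38.p14, both minus strand). The ELOVL5 window lies at chr6:53348951-53349200 and that of ELOVL6 at chr4:110198616-110198865. Capitals mark an E-box (CACGTG) and CCAAT boxes, here on the opposite strand as ATTGG, in ELOVL5 and a GC box in ELOVL6.
ELOVL5: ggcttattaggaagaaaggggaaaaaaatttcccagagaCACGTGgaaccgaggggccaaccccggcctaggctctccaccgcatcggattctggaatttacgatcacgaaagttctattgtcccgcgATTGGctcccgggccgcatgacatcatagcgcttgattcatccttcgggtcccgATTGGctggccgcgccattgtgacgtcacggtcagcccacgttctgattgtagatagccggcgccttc
ELOVL6: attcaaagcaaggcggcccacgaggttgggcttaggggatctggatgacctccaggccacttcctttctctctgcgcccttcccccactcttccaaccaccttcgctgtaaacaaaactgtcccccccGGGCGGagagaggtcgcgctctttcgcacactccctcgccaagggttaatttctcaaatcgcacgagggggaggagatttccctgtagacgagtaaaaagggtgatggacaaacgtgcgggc

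**Figure D3:**
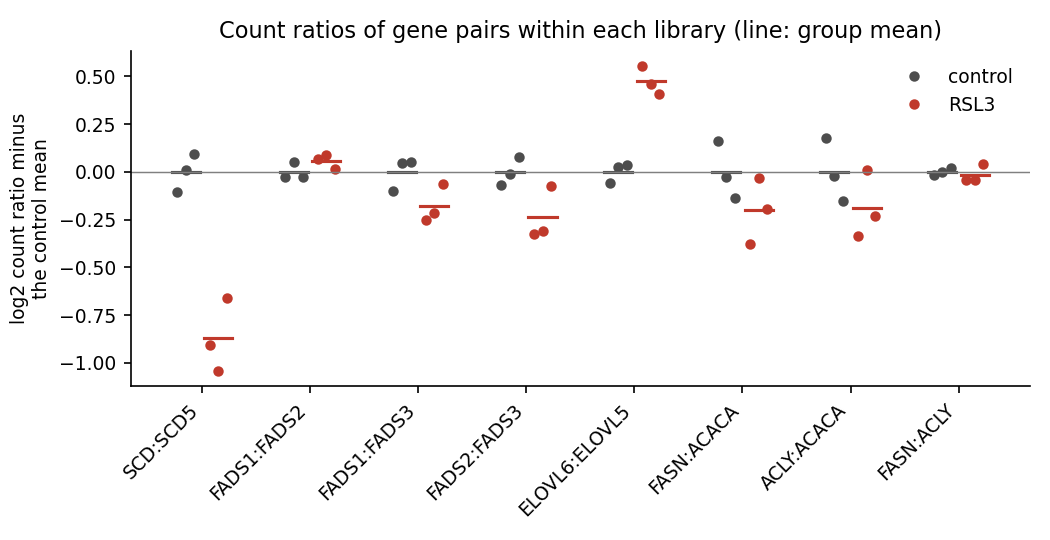
Count ratios of 8 gene pairs within each library, on the log2 scale relative to the mean of the control libraries (points, libraries; lines, group means; n = 3 per group). The ratio of SCD to SCD5 is lower in all RSL3 libraries by 0.87 on average and that of ELOVL6 to ELOVL5 higher by 0.47, and FASN to ACLY lies close to 0 in both groups.

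Promoter windows were found for 9 of the 10 genes, some with several starts, 13 windows in all. A CCAAT box occurred in 6 of 9 genes, against 37.0% of the 27305 genes in the table, and a GC box in 8 of 9, against 46.2%. The genes of the table were not limited to expressed genes or matched for GC content. The E-box was found in ELOVL5 only, 1 of 9 against 7.73%. The sterol response element core TCACNCCAC was found in 0 of 9 genes, against 1.09% of all genes. For so rare a motif 0 of 9 is the usual outcome, so no conclusion is drawn from it. Both strands were searched over 250 bases, and genes called lower, higher and not called are all among those with a GC box.

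RNA levels fell at both ends of the cytosolic route of fatty acid synthesis. ACLY (ENSG00000131473, chr17:41866917-41930542, minus strand) had 14156, 14465 and 14965 normalized counts in control and 12044, 12086 and 12776 in RSL3 libraries. FASN (ENSG00000169710, chr17:82078338-82098294, minus strand) had 22896, 23643 and 24789 in control and 19161, 19224 and 21486 in RSL3 libraries. In both genes every RSL3 library lay below every control library, and replicate 3 was the highest of each group. ACLY had a log2 fold change of -0.24 (SE 0.03, edgeR adjusted p = 7.19e-06), and the level fell by 15.3%. That of FASN was -0.25 (SE 0.04, edgeR adjusted p = 4.11e-05), and the level fell by 16.0%. ACLY shares 156 exonic bases, 2.995% of its exonic length, with an unnamed gene on the opposite strand (ENSG00000274630). There were 1.62, 1.63 and 1.66 FASN counts per ACLY count in control and 1.59, 1.59 and 1.68 in RSL3 libraries, which overlapped. Replicate 3 was the highest library of its group in 5 of the 6 genes called lower, in control and in RSL3 alike, with ELOVL5 the exception.

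ACACA, the carboxylase between them (ENSG00000278540, chr17:37084992-37406836, minus strand), could not be measured with like precision. Raw counts were 124, 93 and 140 in control and 103, 90 and 117 in RSL3 libraries, and normalized counts were 97.5, 114 and 129 against 118, 93.5 and 117. The groups overlapped, and the log2 fold change of -0.05 had a 95% interval from -0.40 to 0.30 (edgeR adjusted p = 0.870). Its sign turned when control replicate 3 (0.06) or RSL3 replicate 2 (0.05) was left out.

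The low ACACA counts were shared by its neighbours. AP2B1 and RPL23, the nearest protein-coding genes with over 1000 counts in every library, held 12779 to 19067 and 19067 to 31701 counts. Between them, over chr17:35731639-38841438 (GENCODE v44, GRCh38), lie 58 protein-coding genes, ACACA included. None exceeded 236 counts in any library, the highest being DDX52, and 29 were at 0 in all libraries. Why a stretch of this length was low was not tested, and the ACACA values are levels in these count files rather than a measure of how much of its mRNA the cells hold. The ratios of FASN and of ACLY to ACACA overlapped between groups and rest on the same counts.

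**Figure D4:**
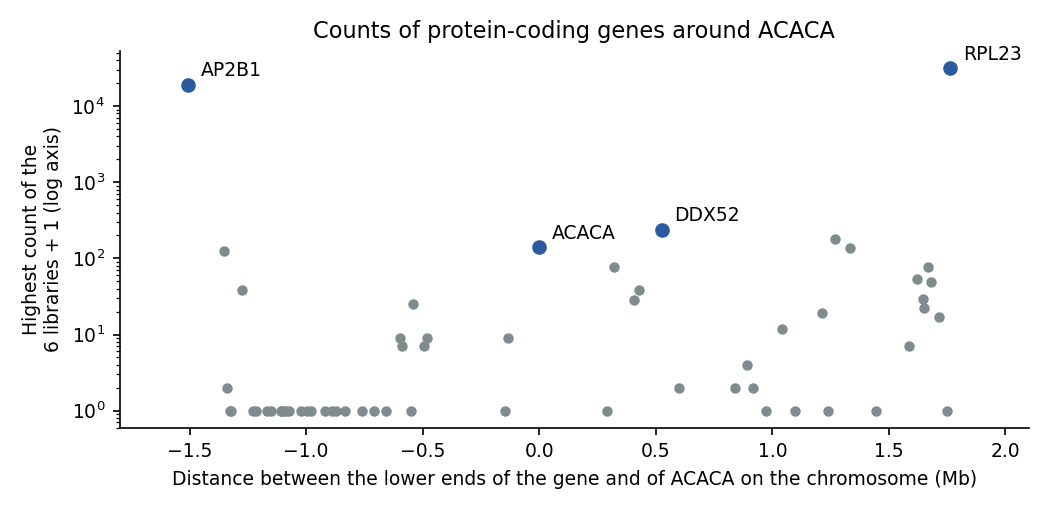
Highest count in any of the 6 libraries, plus 1 and on a log axis, for the protein-coding genes from AP2B1 to RPL23, against distance from ACACA in megabases. AP2B1 and RPL23 hold at least 12779 counts in every library, and no gene between them exceeds 236.

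Other genes of the pathway were described by 5 lists of 50 genes. Of these 43 were tested, 12 were called lower and 6 higher, against 12.7% lower and 12.9% higher among all genes, and the median log2 fold change was -0.03. Among 6 tested genes of carbon supply and accessory enzymes, 3 were lower (ACSS2, SLC25A1 and ACACB, a paralog of ACACA) and 0 higher by edgeR, with 0 higher also at an unadjusted p under 0.05 and by DESeq2. ACSS2, which makes acetyl-CoA from acetate, fell from 3090 to 2319 normalized counts (-0.41 on the log2 scale, edgeR adjusted p = 6.25e-07). SLC25A1, the carrier that exports the citrate ACLY cleaves, fell from 5373 to 4670 (-0.20, edgeR adjusted p = 0.000138). Of 9 tested genes of the remaining elongation cycle, 2 were lower, ELOVL1 with a log2 fold change of -0.18 and ELOVL7 with -0.16 (edgeR adjusted p = 0.000221 and 0.00151).

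In the list of electron carriers of the desaturases and other desaturases, 3 of 6 tested were lower and 2 higher by edgeR, and 2 lower and 2 higher by DESeq2. Over all genes, edgeR called 12.7% lower and 12.9% higher. CYB5R3, a reductase of cytochrome b5, had a log2 fold change of -0.18 and the cytochrome CYB5B of -0.12, while the reductases CYB5R1 and CYB5R4 had 0.24 and 0.16 (edgeR adjusted p = 8.51e-05, 0.0110, 0.000849 and 0.0148). Mitochondrial fatty acid synthesis, a separate route, had 0 of 5 tested genes called by edgeR in either direction, 0 at an unadjusted p under 0.05 and 0 called by DESeq2. With 25.6% of all genes called by edgeR, 0 of 5 is a common outcome, and no conclusion is drawn from it.

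Of 17 tested regulators of lipogenesis, 4 were lower and 4 higher by edgeR, and 3 lower and 4 higher by DESeq2. The edgeR shares over all genes were 12.7% lower and 12.9% higher. SREBF1, the transcription factor that drives many of the 10 genes, fell from 9824 to 8404 normalized counts (-0.23 on the log2 scale, edgeR adjusted p = 2.81e-05). INSIG1, which retains SREBP precursors in the endoplasmic reticulum and is itself a target of SREBP, fell from 25127 to 19250 (-0.38, edgeR adjusted p = 1.56e-08). Its relative INSIG2 rose from 1279 to 1564 (0.29, edgeR adjusted p = 0.000158). PRKAA1, a catalytic subunit of the kinase AMPK that inhibits ACACA, had a log2 fold change of 0.19 (edgeR adjusted p = 0.000342).

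**Figure D5:**
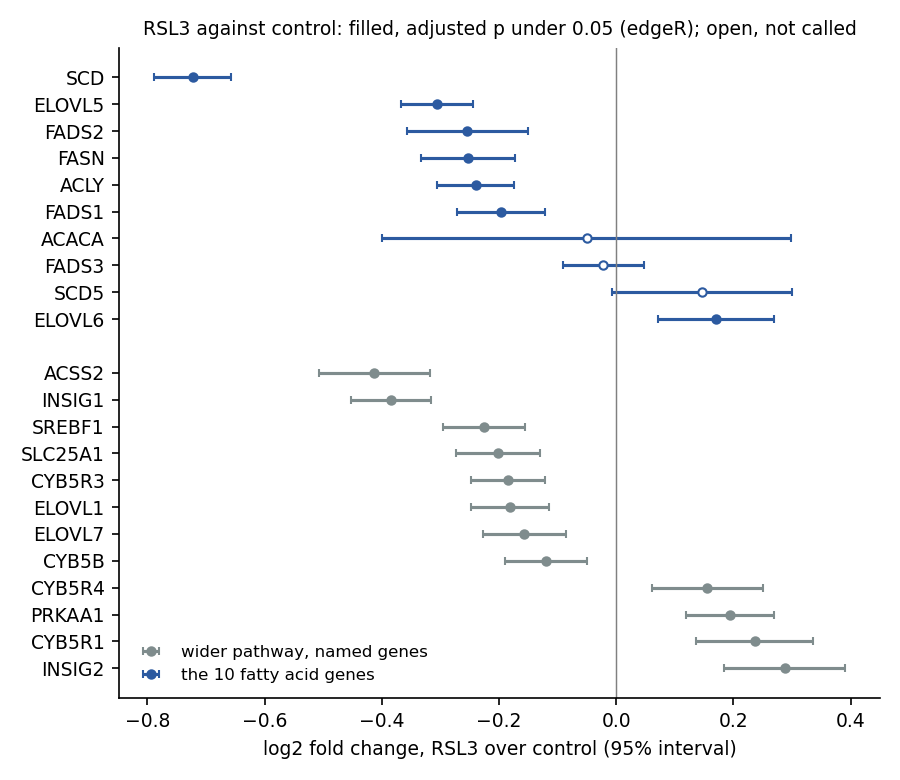
Log2 fold change with its 95% interval for the 10 fatty acid genes and for the named genes of the wider pathway (filled, edgeR adjusted p under 0.05; open, not called). SCD at -0.72 lies apart from every other gene shown, and the interval of ACACA is the widest, from -0.40 to 0.30.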

How the data were processed

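RNA of U87MG cells (3 control and 3 RSL3 libraries) was sequenced in pairs of reads. According to the study's methods and the submitters' processing notes, the authors used Trimmomatic 0.36 and Fastp for trimming, HISAT2 for alignment (GRCh38.p4) and HTSeq 0.6.1p1 for unstranded counting on exons; the annotation release is not given in the sources used here. The values the authors deposited are raw counts per Ensembl gene, not normalized.

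The test was run in edgeR 4.0.16 (R 4.3.3): filterByExpr with a minimum count of 10, TMM scaling, the quasi-likelihood F test and Benjamini-Hochberg adjustment, with calls at 0.05. Normalized counts are scaled to the mean effective library size. RPKM used GENCODE v44 exon lengths. Gene names matched 14680 of the 16105 genes tested. Ratios were compared by two-sided exact permutation tests. On data simulated for this comparison, with 15892 genes tested, 77% of changes of 0.3 and 97% of changes of 0.7 on the log2 scale were recovered, and 0.051% of unchanged genes were called. The simulation gave every gene the same dispersion (spread between replicates) and changed 100 genes per size of change, all above a count floor. Dispersion differs between real genes, so these shares need not hold in the real libraries. Replicates differed by more than sampling noise (chi-square per gene 2.43 to 5.58), so each was kept.

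Promoter windows came from the RefSeq table (GRCh38.p14), and FASN is not among its entries. The 10 genes and all lists were chosen with earlier results of these data known. All 10 were named, and in each other list except the markers up to 2 called genes per direction, taken by p (1 gene so chosen is not reported here). ACACB, DDX52, SCDP1, AP2B1 and RPL23 were added after their values were seen. Alternatives were other scalings and filters, DESeq2 1.42.0 with 0 to 2 surrogate variables (sva 3.50.0), GC offsets, a replicate block, stricter thresholds and leaving out each library. Neither reads nor assembled transcripts were used here.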

Additional observations from a re-analysis of the deposited data

How the results depend on the processing

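Over 18 alternatives, the log2 fold change of SCD ranged from -0.77 to -0.70. The 6 genes called lower had negative log2 fold changes in all 18, and all 6 were called lower in all but 1 of them. With a log2 change of 0.5 or more in size also required, 768 of all genes were called, members called lower numbered 1 (SCD), members called higher 0, and genes of the wider pathway 0 lower and 0 higher (edgeR). Over all genes, 2691 were called at an adjusted p under 0.01 and 2268 by DESeq2 with 2 surrogate variables, against 4123; both gave 0 members called higher, though 1 had an unadjusted p under 0.05. Leaving out 1 library gave 0 to 1 members called higher, the log2 fold change of ACACA ranged from -0.16 to 0.0614 (0.0614 without control replicate 3, 0.05 without RSL3 replicate 2) and that of FADS3 from -0.0474 to 0.00626 (0.00626 without control replicate 1).

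Same-numbered libraries had correlations of their deviations of 0.022, 0.027 and 0.074, against -0.051 to 0.024 for differently numbered libraries. The labels do not say whether the numbers pair the libraries, and the main test assumed no pairing. With the replicate block, 4633 genes were called, against 4123 without it, and 6 members were lower and 1 higher. The fold change of ACACA rests on at most 140 counts per library. Ratios of 3 against 3 libraries could not reach an exact permutation p under 0.1.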

Other observations

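Lists of other lipid genes were measured in the same libraries, where 12.7% of all genes were called lower and 12.9% higher. Of 15 sterol synthesis enzymes, all tested, 13 were called lower and 0 higher by edgeR, with 0 higher also at an unadjusted p under 0.05 and by DESeq2, and with a median log2 fold change of -0.38. IDI1, an isomerase of the isoprenoid route, had -0.42 (edgeR adjusted p = 1.19e-08). Among the long-chain acyl-CoA synthetases and LPCAT3, which activate fatty acids and place them into phospholipids, 4 of 5 tested were lower. ACSL4, which favours polyunsaturated chains, fell from 7873 to 5960 normalized counts (-0.40 on the log2 scale, edgeR adjusted p = 2.28e-07), and ACSL3, which favours monounsaturated chains, from 13843 to 12429 (-0.16, edgeR adjusted p = 0.000621).

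Of 14 tested genes of fatty acid beta-oxidation, which breaks the chains down, 4 were lower and 2 higher by edgeR, and 4 lower and 1 higher by DESeq2, with a median log2 fold change of -0.07 (edgeR). SLC25A20, the carnitine carrier of the mitochondrial membrane, fell from 605 to 470.4 normalized counts (-0.36, edgeR adjusted p = 0.000836), and ETFDH, which passes electrons to ubiquinone, had -0.25 (edgeR adjusted p = 0.000940). ACADVL, the dehydrogenase of very long chains, and CPT1A, which commits chains to the mitochondria, had 0.10 and 0.11 (edgeR adjusted p = 0.0171 and 0.0494), and the libraries of the groups overlapped for CPT1A.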
